A study of Mus musculus with 10 samples.

Results

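Cytochrome P450 enzymes of families 1 to 3 were followed in mouse liver after silencing of the Rab5 GTPases. The members were all rows of the array table whose platform annotation gave exactly 1 gene symbol, that symbol being Cyp, then 1, 2 or 3, then a letter. This rule took 52 of 45101 probe sets, standing for 43 of 18193 named genes, and used no measured value. The largest subfamilies were 2c with 11 genes, 2d with 8 genes, 2j and 3a with 5 genes each and 2b with 4 genes. Subfamily 1a had 2 genes, and 1b, 2a, 2e, 2f, 2g, 2r, 2s and 2u had 1 gene each. A further 2 rows named 2 P450 genes at once (Cyp2a5 with Cyp2a4, and Cyp3a41a with Cyp3a41b) and were left out by the rule.

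P450 enzymes are haem proteins of the endoplasmic reticulum that oxidise their substrates with electrons passed on by P450 reductase. Those of families 1 to 3 are abundant in hepatocytes, where they metabolise drugs, toxins, steroids, bile acids and fatty acids. Many are controlled by the xenobiotic receptors AhR, CAR and PXR, by the lobular position of the hepatocyte and by the sex-dependent pattern of growth hormone. Rab5a, Rab5b and Rab5c are small GTPases of early endosomes.

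All 10 livers came from male mice of the strain C57BL/6 NHsd, whose age is not given in the sources used here. The PBS group (2 arrays) received phosphate-buffered saline. The control siRNA group (4 arrays) and the Rab5 siRNA group (4 arrays) received siRNA in lipid nanoparticles by the tail vein at 1.5 mg/kg, the latter against all Rab5 genes together. The sample titles describe the control as a scrambled RNA and the design text as one against luciferase. Livers were taken on day 5 and whole-tissue RNA was hybridised to Affymetrix expression arrays of the mouse genome. The titles number the livers of each group without stating that each was from a separate mouse, so the p-values reflect only how much these livers varied. There was 1 set of Rab5 siRNAs, so effects of losing Rab5 and other effects of these siRNAs cannot be told apart. No empty nanoparticle was among the groups.

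The values are log2 expression values, so equal differences are equal ratios of signal. Array medians lay between 4.29 and 4.37. Of the targeted genes, Rab5a (-1.81) and Rab5c (-1.99) fell with Rab5 siRNA against control siRNA, while Rab5b (-0.24) did not pass. The means of Rab5b were 4.42, 4.34 and 4.10 after PBS, control and Rab5 siRNA, beside a floor of 4.33 (log2). That floor is the median of the table, used as a filter and not as a limit of detection. Values near it may be compressed, though falls to below it were called for Cyp2j9 (control mean 4.38, Rab5 mean 3.84) and Cyp26a1 (5.43 and 3.95). Whether Rab5b was silenced is not settled by these values. On the first principal component of all genes Rab5 array 1 had a score of 17.5 and the other Rab5 arrays 30.3 to 38.3, so it lay nearest the controls. The difference between the 3' and 5' probe sets of Gapdh, a sign of RNA quality, was highest in array 2 of each group (2.58, 2.86 and 2.67). The hepatocyte markers were present, and the summed level of the 7 of 8 that were measured lay between 16.12 and 16.17 (log2) in every array. That sum rests mostly on Alb, Ttr, Apoa1 and Apoc3, whose group means of 13.53 to 14.11 lay close to the highest value of an array (14.43 to 14.48), where little change can show. The mean deviation of the same 7 markers from their control means was -0.23 to -0.17 in Rab5 arrays and -0.05 to 0.05 in control arrays. It rests mostly on Tat, an amino acid degrading enzyme of that list, which fell by 1.37. The other 6 did not pass, with changes from -0.17 (Ttr and Hnf4a) to 0.18 (Apoa1).

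Of the 43 genes, 34 were tested with limma among 12855 genes, having a probe set whose value exceeded 4.33, the median of the table, on 2 or more arrays. Against control siRNA, 14 of the 34 fell with Rab5 siRNA, where 9.51% of all genes tested were called lower. A rise was called for 4, where 13.8% of all genes were called higher, and 16 did not pass at an adjusted p under 0.05. The sign was negative for 25 of the 34, and the median change was -0.20 against 0.00 over all genes. A fall of at least 2-fold was called for 6 members: Cyp2c37, Cyp2c54, Cyp2d13, Cyp2c50, Cyp3a25 and Cyp2c29. RNA of whole liver was measured, so fewer cells of a type and less RNA per cell cannot be told apart. Genes of a subfamily are similar in sequence, and how far a probe set also binds the RNA of a relative was not tested. By their suffix, 28 of the 34 probe sets are plain, 4 match several transcripts of the gene (_a_at) and those of Cyp2b10 and Cyp2c23 may match several transcripts (_s_at). The plot of changes by subfamily shows that the falls were spread unevenly, with called and uncalled members side by side within 1a, 2c, 2d and 3a.

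**Figure D1:**
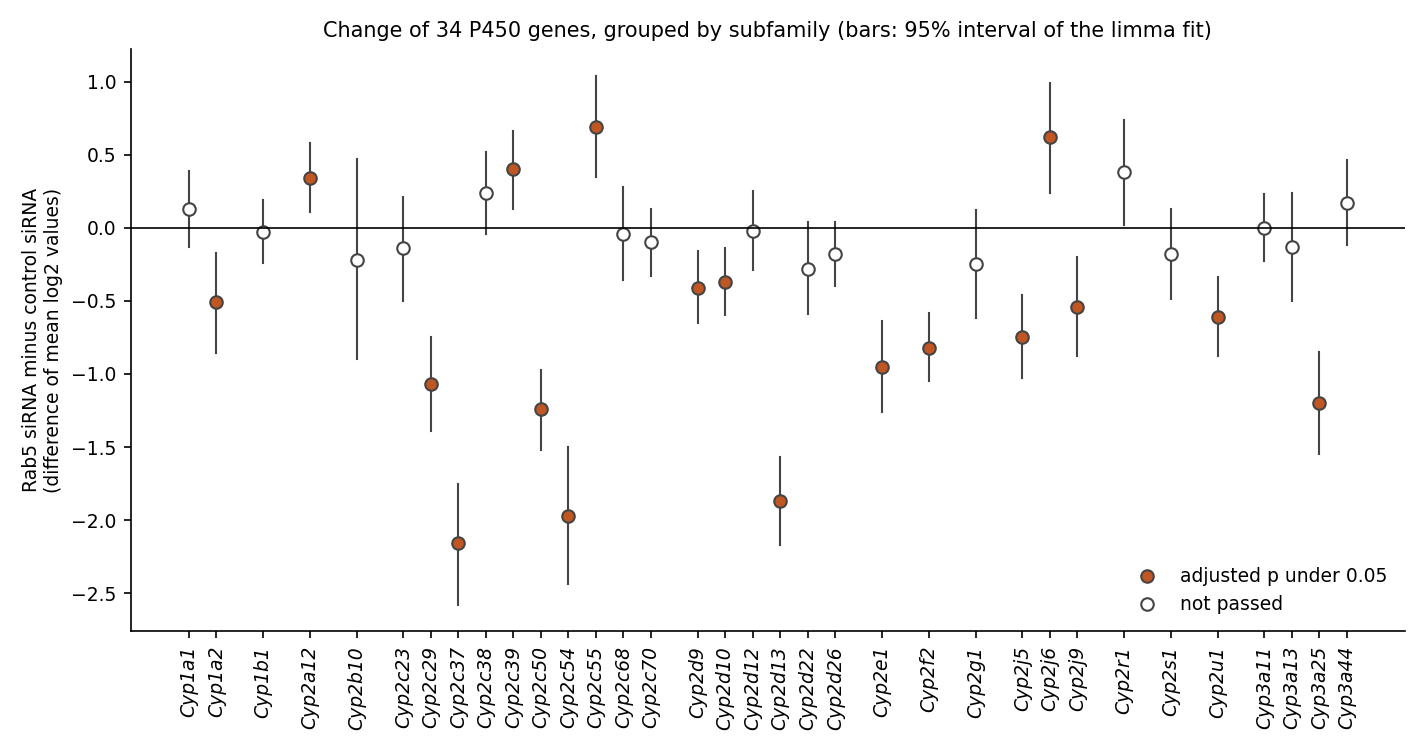
Difference of mean log2 values, Rab5 siRNA minus control siRNA (4 arrays each), for the 34 P450 genes tested, ordered by subfamily along the x axis; bars are 95% intervals of the limma fit and filled points have an adjusted p under 0.05. The deepest falls are those of Cyp2c37 (-2.16), Cyp2c54 (-1.97) and Cyp2d13 (-1.87), and the highest rise is that of Cyp2c55 (0.69).

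The 4 Rab5 arrays lay below all 4 control arrays for 13 members, where 11.2% of all genes did so, and above all 4 for 2 members, where 13.8% did so. The filter can favour genes that are high in 1 group: Cyp2j9 passed it through the control arrays alone, Cyp3a44 through the Rab5 arrays alone, and Cyp1a1 and Cyp1b1 through the siRNA groups. Cyp2s1 passed it with no group holding 2 such arrays. Of the 29 members above the floor in every group, 13 fell and 4 rose. The share over all genes above the floor in every group was not counted, so these counts have no matching share. With no filter, 15 of all 43 members were called lower and 4 higher, with 24 not passed, where 6.69% of 18193 genes were called lower and 9.37% higher. Their median change was -0.14 against -0.02. Markers of Kupffer cells and macrophages moved with the group: 6 of 10 rose and 0 fell, where 13.8% of all genes were called higher and 9.51% lower. The summed level of the 10 was 12.67 to 12.97 (log2) in control arrays and 13.12 to 13.59 in Rab5 arrays. Among the 6 were Cd68 (1.08) and Cd5l (1.01). The other 4 did not pass: Clec4f (0.30), C1qa (0.26), Adgre1 (0.25) and Csf1r (-0.13). The part of these cells in the P450 changes was not tested.

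The count of falls was 14 without Rab5 array 1 and 11 without the arrays numbered 2 (the latter chosen after seeing the data). The count of rises was less steady. It was 1 without control array 1 or without Rab5 array 4, and 2 without control array 3, Rab5 array 2 or Rab5 array 3. Centring each array on its median, or leaving out the arrays numbered 2, also gave 2. Of the 18 calls, 10 held in all of the alternative settings run for them: Cyp2c29, Cyp2c37, Cyp2c50, Cyp2c54, Cyp2c55, Cyp2d13, Cyp2e1, Cyp2f2, Cyp2j5 and Cyp3a25.

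Subfamily 2c held the deepest fall and the highest rise of the members. Of its 10 genes tested, 4 fell, 2 rose and 4 did not pass, with a median change of -0.12. Cyp2c37, Cyp2c54 and Cyp2c50, which fell most, are direct neighbours on the chromosome, and Cyp2c70, which did not pass, is the next gene. Upstream windows of Cyp2c37, Cyp2c50 and Cyp2c70 are printed to show how far neighbours with different changes differ in sequence; that of Cyp2c54 was not in the table used. They are the 250 bases before the start of each gene in RefSeq on GRCm38.p6, read 5' to 3' on the gene's strand, at chr19:39992174-39992423 (plus strand), chr19:40089429-40089678 (plus strand) and chr19:40187287-40187536 (minus strand). Capitals mark GCAAT, a C/EBP half-site, and AGGTCA, a half-site of nuclear receptors, on either strand (ATTGC and TGACCT on the other).
Cyp2c37: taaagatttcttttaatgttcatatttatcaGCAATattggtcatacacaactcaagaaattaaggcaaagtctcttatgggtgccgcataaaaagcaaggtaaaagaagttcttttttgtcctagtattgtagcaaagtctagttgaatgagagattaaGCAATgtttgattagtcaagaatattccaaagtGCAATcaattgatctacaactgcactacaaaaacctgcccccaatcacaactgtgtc
Cyp2c50: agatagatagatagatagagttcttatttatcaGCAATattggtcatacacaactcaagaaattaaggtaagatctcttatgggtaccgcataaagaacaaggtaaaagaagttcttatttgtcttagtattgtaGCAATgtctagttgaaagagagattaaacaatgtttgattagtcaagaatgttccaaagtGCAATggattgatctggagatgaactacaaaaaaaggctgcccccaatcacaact
Cyp2c70: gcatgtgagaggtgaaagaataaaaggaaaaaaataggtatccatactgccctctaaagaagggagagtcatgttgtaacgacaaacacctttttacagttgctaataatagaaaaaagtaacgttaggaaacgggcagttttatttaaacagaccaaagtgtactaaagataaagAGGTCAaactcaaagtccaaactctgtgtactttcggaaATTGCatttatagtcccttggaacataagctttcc
Aligned over the whole window, Cyp2c37 and Cyp2c50 had 84.3% of columns identical, against 48.1% for Cyp2c37 with Cyp2c70, 47.7% for Cyp2c50 with Cyp2c70 and 54.5% for Cyp2c37 with Cyp2c29. GCAAT was found 3 times in the windows of Cyp2c37 and Cyp2c50, and once beside 1 AGGTCA in that of Cyp2c70. AGTTCA, not marked by capitals, was found once in the window of Cyp2c50 and in neither of the others. These matches are letters in a window and not tested binding sites. Windows were found for 35 of the 43 members. GCAAT was in 11 of them and AGGTCA in 11, where 23.3% and 13.8% of 27025 windows of the same length held them. Among members that fell, 4 of 11 windows held GCAAT and 4 of 11 AGGTCA, and among the other members tested 5 of 16 and 4 of 16. Of the other motifs searched, AGTTCA, a half-site of the PXR and CAR type, was in 2 of 35 (11.9% of all windows), GTTAAT, an HNF1 half-site, in 2 (6.52%), GCGTG, the AhR core, in 6 (28.2%) and TTCNNNGAA, a STAT site, in 1 (7.18%).

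Cyp2c37, an epoxygenase of arachidonic acid, had log2 values of 10.23, 10.11, 10.02 and 10.22 in the control arrays and 8.69, 8.0, 7.61 and 7.63 in the Rab5 arrays, with 10.66 and 10.55 after PBS. The Rab5 arrays lay more than 1 log2 unit below every other array, and Rab5 array 1 was the highest of them. Its change was -2.16 (SE 0.193, adjusted p = 6.21e-06), which left 22.3% of the control signal.

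Cyp2c54, also an epoxygenase, measured 10.81, 10.80, 10.67 and 10.95 in control arrays and 9.64, 8.88, 8.55 and 8.30 in Rab5 arrays, with 11.30 and 11.24 after PBS. The groups were again apart, with the 4 Rab5 values spread more widely (SD 0.584) than the controls (SD 0.115). The change was -1.97 (SE 0.217, adjusted p = 2.91e-05), which left 25.5%. Cyp2c50 had values of 12.24, 12.32, 12.12 and 12.37 in control arrays and 11.35, 11.14, 10.79 and 10.79 in Rab5 arrays, with 12.55 and 12.42 after PBS. No Rab5 value reached a control value, and the change was -1.24 (SE 0.129, adjusted p = 1.87e-05).

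Cyp2c29, an epoxygenase that also metabolises drugs, lies in another stretch of the gene cluster, beside Cyp2c39. It measured 12.43, 12.37, 12.30 and 12.54 in control arrays and 11.76, 11.34, 11.36 and 10.89 in Rab5 arrays, with 12.51 and 12.43 after PBS. Control and PBS arrays overlapped and all Rab5 arrays were lower, by 1.07 on average (change -1.07, SE 0.149, adjusted p = 0.000178).

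The rises were in Cyp2c55 and Cyp2c39. Cyp2c55, a P450 known from the intestine and inducible in liver, measured 6.14, 6.58, 6.44 and 6.47 in control arrays and 6.83, 7.61, 6.94 and 7.02 in Rab5 arrays, with 6.16 and 5.93 after PBS. All Rab5 values were above all others, with Rab5 array 2 highest, and the change was 0.69 (SE 0.159, adjusted p = 0.00642). Cyp2c39, which oxidises retinoic acid, lies next to Cyp2c29 on the chromosome and was near the floor. Its values were 4.70, 4.92, 4.55 and 4.45 in control arrays and 4.92, 4.93, 5.08 and 5.29 in Rab5 arrays, with 4.98 and 4.83 after PBS. The highest control array met the lowest Rab5 array. Its change of 0.40 (SE 0.123, adjusted p = 0.0322) was no longer called after median centring (0.34, adjusted p = 0.0694). The call was also lost without control array 1 (0.41), 3 (0.36) or 4 (0.33) and without Rab5 array 3 (0.39) or 4 (0.32), with adjusted p between 0.0547 and 0.0904.

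The other 4 genes of subfamily 2c that were tested did not pass. Cyp2c70, which makes the muricholic acids of mouse bile, measured 11.82 to 12.17 (median 11.99) in control arrays and 11.78 to 11.97 (median 11.91) in Rab5 arrays, a difference of -0.10 (95% interval -0.33 to 0.13, adjusted p = 0.543). The interval excludes falls of the size of its neighbours. Cyp2c23, an epoxygenase of kidney and liver, differed by -0.14 (95% interval -0.50 to 0.21), Cyp2c68 by -0.04 (-0.36 to 0.28) and Cyp2c38 by 0.24 (-0.04 to 0.52). Cyp2c38 was called with array weights (0.40, adjusted p = 0.0382). The sign of Cyp2c68 turned without the arrays numbered 2 (0.01). The plot of changes in gene order shows the 3 adjacent falls and the isolated fall of Cyp2c29. Between them lie Cyp2c39, which was called higher, the uncalled Cyp2c38 and Cyp2c68, and genes with no tested value.

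**Figure D2:**
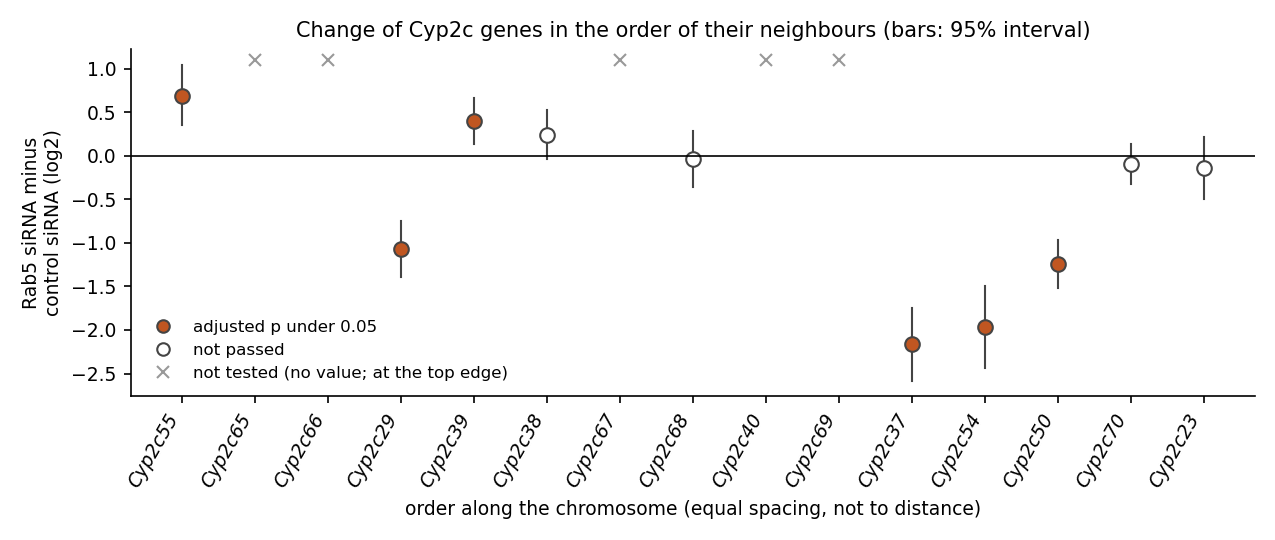
Difference of mean log2 values, Rab5 siRNA minus control siRNA (4 arrays each), for the Cyp2c genes in their order along the chromosome in RefSeq, at equal spacing; bars are 95% intervals, and crosses at the top edge mark genes with no tested value. Cyp2c37 (-2.16), Cyp2c54 (-1.97) and Cyp2c50 (-1.24) stand next to Cyp2c70 (-0.10), and Cyp2c23, drawn last, lies beyond 52 other coding genes.

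Subfamily 3a split between 1 deep fall and 3 genes that did not pass. The upstream windows of Cyp3a25 (chr5:146009619-146009868) and of its neighbour Cyp3a11 (chr5:145879855-145880104), both on the minus strand of GRCm38.p6, are printed since these adjacent genes differed in response; the capitals are as above.
Cyp3a25: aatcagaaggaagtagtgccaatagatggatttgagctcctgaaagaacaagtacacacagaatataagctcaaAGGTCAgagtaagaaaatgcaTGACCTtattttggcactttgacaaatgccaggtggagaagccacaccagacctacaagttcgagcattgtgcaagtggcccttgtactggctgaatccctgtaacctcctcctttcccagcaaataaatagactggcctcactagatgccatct
Cyp3a11: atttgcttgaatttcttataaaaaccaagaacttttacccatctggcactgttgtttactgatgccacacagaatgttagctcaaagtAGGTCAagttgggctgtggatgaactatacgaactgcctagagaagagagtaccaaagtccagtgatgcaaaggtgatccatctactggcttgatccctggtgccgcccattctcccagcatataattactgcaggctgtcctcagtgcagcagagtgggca
The windows had 52.7% of aligned columns identical. That of Cyp3a25 held AGGTCA 2 times, once on each strand, and that of Cyp3a11 once. AGTTCA, not marked by capitals, was found once in the window of Cyp3a11 and not in that of Cyp3a25. GCAAT was in neither window.

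Cyp3a25 measured 11.37, 11.96, 11.52 and 11.56 in control arrays and 10.22, 10.89, 10.19 and 10.30 in Rab5 arrays, with 11.52 and 11.40 after PBS. Array 2 was the highest of both siRNA groups, and the groups did not overlap. The change was -1.20 (SE 0.162, adjusted p = 0.000143), which left 43.4% of the control signal. Cyp3a11, the main drug-metabolising family member of mouse liver and a PXR target, measured 13.12, 13.37, 13.25 and 13.26 in control arrays and 13.13, 13.50, 13.12 and 13.26 in Rab5 arrays, with 13.21 and 13.08 after PBS. The 3 groups overlapped, and the difference was 0.00 (95% interval -0.23 to 0.23, adjusted p = 0.997). Cyp3a13 differed by -0.13 (95% interval -0.50 to 0.24) and Cyp3a44, a female-predominant gene near the floor, by 0.17 (-0.12 to 0.46).

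In subfamily 2d, 3 of 6 genes tested fell and 3 did not pass, with changes from -1.87 to -0.02 and a median of -0.32. Cyp2d13 measured 8.44, 8.15, 8.05 and 8.23 in control arrays and 6.69, 6.32, 6.39 and 5.99 in Rab5 arrays, with 8.59 and 8.57 after PBS. All Rab5 arrays were more than 1 log2 unit below all others, and the change was -1.87 (SE 0.138, adjusted p = 1.57e-06), which left 27.3%. Its other probe set differed by -1.64.

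Cyp2d9, a male-predominant steroid hydroxylase, measured 12.90, 12.85, 12.79 and 12.84 in control arrays and 12.59, 12.52, 12.55 and 12.10 in Rab5 arrays, with 12.90 and 12.74 after PBS. The groups did not overlap, Rab5 array 4 stood lowest, and the change was -0.41 (SE 0.114, adjusted p = 0.0199). It was -0.43 (adjusted p = 0.0994) without the arrays numbered 2. Cyp2d10, its neighbour on the chromosome, measured 12.68 to 12.79 (median 12.70) in control arrays and 12.08 to 12.53 (median 12.39) in Rab5 arrays, without overlap. Its change of -0.37 (SE 0.107, adjusted p = 0.0226) lost its call without control array 1 (-0.35, adjusted p = 0.0597), Rab5 array 2 (-0.38, 0.0519), Rab5 array 4 (-0.28, 0.0587) or the arrays numbered 2 (-0.39, 0.112).

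Cyp2d26 (-0.18, 95% interval -0.40 to 0.04), Cyp2d12 (-0.02, -0.29 to 0.25) and Cyp2d22 (-0.28, -0.59 to 0.04) did not pass. For Cyp2d22, often taken as the mouse counterpart of human CYP2D6, the answer depended on the probe set. The one with the higher mean gave 9.46, 9.48, 9.40 and 8.77 in Rab5 arrays against 9.46 to 9.71 in control arrays. The other gave 7.55, 7.59, 7.46 and 7.12 against 7.92 to 8.23, without overlap, a difference of -0.65 (adjusted p = 0.00785 over all named probe sets).

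Subfamilies 2e and 2f have 1 gene each, and both fell. Cyp2e1, the pericentral enzyme that oxidises ethanol and paracetamol, measured 13.46, 13.28, 13.30 and 13.38 in control arrays and 12.77, 12.39, 12.52 and 11.95 in Rab5 arrays, with 13.46 and 13.35 after PBS. Every Rab5 array was below every other array, and the change was -0.95 (SE 0.145, adjusted p = 0.000362), which left 51.8%. Cyp2f2, a periportal enzyme that activates naphthalene, measured 12.77, 12.78, 12.90 and 12.78 in control arrays and 12.12, 12.16, 11.93 and 11.76 in Rab5 arrays, with 12.83 and 12.62 after PBS. The groups did not overlap, and the change was -0.82 (SE 0.108, adjusted p = 0.000121).

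**Figure D3:**
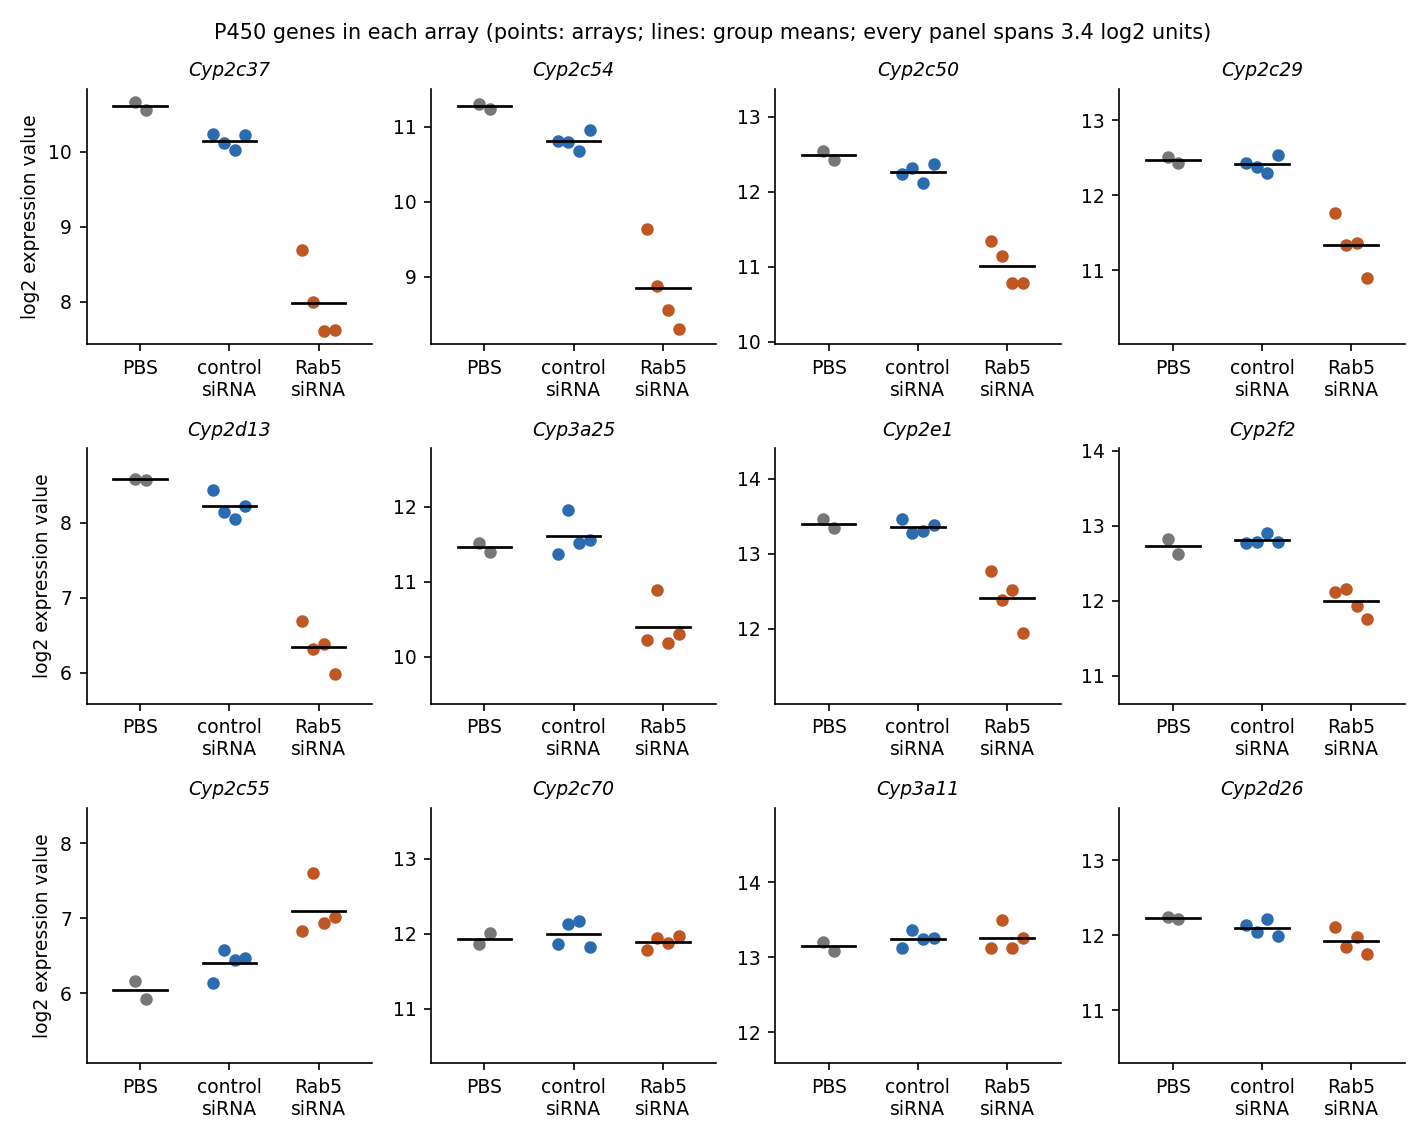
Log2 expression of 12 P450 genes in each array (points; PBS 2, control siRNA 4 and Rab5 siRNA 4 arrays) with group means as lines; every panel spans 3.4 log2 units. Rab5 arrays lie below all others for the 8 genes of the upper 2 rows and above them for Cyp2c55. The siRNA groups overlap for Cyp2c70, Cyp3a11 and Cyp2d26, though for Cyp2d26 the Rab5 arrays lie below the PBS arrays.

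In subfamily 2j all 3 genes tested were called, in opposite directions. Cyp2j5, an epoxygenase of liver and kidney, measured 10.22, 10.17, 10.08 and 10.39 in control arrays and 9.67, 9.29, 9.24 and 9.68 in Rab5 arrays, with 10.50 and 10.17 after PBS. The groups did not overlap, and the change was -0.75 (95% interval -1.03 to -0.46, adjusted p = 0.00103). Its other probe set differed by -0.89.

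Cyp2j6, which oxidises fatty acids, measured 5.86, 6.39, 5.99 and 6.26 in control arrays and 6.26, 6.80, 6.75 and 7.15 in Rab5 arrays, with 6.32 and 6.03 after PBS. Rab5 array 1 fell within the control range. The change was 0.62 (SE 0.174, adjusted p = 0.0205), but a dimmer probe set of the gene differed by -0.10, and the mean of both by 0.26 (adjusted p = 0.271). The call was also lost without control array 1 (0.53) or 3 (0.57), without Rab5 array 2 (0.60) or 4 (0.48) and without the arrays numbered 2 (0.69), with adjusted p between 0.0538 and 0.0674. Cyp2j9 lay near the floor, at 4.05 to 4.80 (median 4.33) in control arrays and 3.58 to 4.10 (median 3.83) in Rab5 arrays, which overlapped. Its change was -0.54 (SE 0.157, adjusted p = 0.0241). The call was lost without control array 4 (-0.40), Rab5 array 3 (-0.48), Rab5 array 4 (-0.46) or the arrays numbered 2 (-0.62), with adjusted p between 0.0622 and 0.0869.

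Cyp1a2, the pericentral AhR target that metabolises caffeine, measured 11.98, 11.88, 11.97 and 11.96 in control arrays and 11.65, 11.78, 11.37 and 10.93 in Rab5 arrays, with 12.25 and 11.89 after PBS. The groups did not overlap, though Rab5 arrays 1 and 2 lay close to the controls. Its change was -0.51 (SE 0.159, adjusted p = 0.0328). The call was lost without any 1 of the control arrays (-0.50, -0.54, -0.51 and -0.51), without Rab5 array 3 (-0.49) or 4 (-0.35) and with array weights (-0.37), with adjusted p between 0.0550 and 0.0830. Cyp1a1 and Cyp1b1, also AhR targets and known mainly outside the resting liver, were near the floor. They differed by 0.13 (95% interval -0.13 to 0.39) and -0.03 (-0.24 to 0.19).

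Cyp2a12, a steroid and bile acid hydroxylase and the only member of subfamily 2a, measured 10.95, 10.85, 10.70 and 11.01 in control arrays and 11.30, 11.15, 11.15 and 11.28 in Rab5 arrays, with 11.16 and 10.78 after PBS. The siRNA groups did not overlap, but 1 PBS array lay within the Rab5 range. Its change of 0.34 (SE 0.109, adjusted p = 0.0369) lost its call after median centring (0.29, adjusted p = 0.0780) and without the arrays numbered 2 (0.36, 0.113). It also lost it without control array 1 (0.37), 2 (0.33) or 3 (0.28) and without any 1 Rab5 array (0.32, 0.36, 0.36 and 0.32), with adjusted p between 0.0527 and 0.104.

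Of the genes in the remaining subfamilies, Cyp2u1, a fatty acid hydroxylase, fell. It measured 6.52, 6.63, 6.77 and 6.96 in control arrays and 6.35, 5.92, 6.19 and 5.97 in Rab5 arrays, with 7.11 and 6.93 after PBS. The groups did not overlap, and the change was -0.61 (SE 0.126, adjusted p = 0.00319). A dimmer probe set differed by 0.01, and the mean of both by -0.30 (adjusted p = 0.0760). Cyp2r1, the vitamin D hydroxylase of liver, differed by 0.38 (95% interval 0.02 to 0.74, adjusted p = 0.125) and was called without control array 3 (0.52, adjusted p = 0.0354). Cyp2g1, an olfactory enzyme (-0.25, 95% interval -0.62 to 0.12), and Cyp2s1 (-0.18, -0.49 to 0.13) were near the floor and did not pass.

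The 9 members with no probe set above the floor were Cyp2b13, Cyp2b19, Cyp2b9, Cyp2c65, Cyp2d34, Cyp2d40, Cyp2j11, Cyp2j13 and Cyp3a16. Their group means lay between 1.76 and 4.15 and their changes between -0.55 and 0.02 in a fit of every named probe set. The lowest was that of Cyp2d40 (adjusted p = 0.00699), with 3.30, 3.48, 3.56 and 3.09 in Rab5 arrays and 3.73 to 4.05 in control arrays.

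The Rab5 arrays differed in how far the called members fell. Of the 14 members that fell, Rab5 array 1 was the highest of the 4 arrays in 10 and Rab5 array 4 the lowest in 10. The mean deviation of the 34 members from the control mean was -0.27, -0.28, -0.49 and -0.49 in Rab5 arrays 1 to 4, and between -0.03 and 0.03 in the control arrays. For subfamily 2c it was -0.32, -0.47, -0.70 and -0.67. The same ranking over all genes called lower was not made. Rab5 array 1 had the smallest mean rise of the Kupffer cell markers (0.18, against 0.71 to 0.78 in the others), whose part was not tested. Of the targeted genes, Rab5a was lowest in Rab5 array 1 (6.28, others 6.91 to 7.16) and Rab5c highest there (7.36, others 6.99 to 7.28).

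Whether genes of 1 subfamily changed unequally was tested on the difference between 2 genes within each array, over 4 against 4 arrays. In each subfamily the gene with the highest mean was paired with every other gene tested, which gave 20 pairs. For 12 of them the groups were fully apart (exact two-sided permutation test, p = 0.0286, the smallest that 70 regroupings can give, adjusted p = 0.0476 over the pairs). Cyp3a25 fell more than Cyp3a11 (difference of changes -1.20), and Cyp2d13 more than Cyp2d9 (-1.46). Cyp2c37 (-1.09) and Cyp2c54 (-0.90) fell more than Cyp2c29, while Cyp2c55, Cyp2c39, Cyp2c38, Cyp2c68, Cyp2c70 and Cyp2c23 differed from Cyp2c29 by 1.77, 1.47, 1.31, 1.03, 0.97 and 0.93. Cyp2j6 differed from Cyp2j5 by 1.36 and Cyp1a1 from Cyp1a2 by 0.65. Cyp1a1 and Cyp2c39 lay near the floor, where values may be compressed. A fall there may be understated, though Cyp2j9, at a similar level, was called lower (-0.54). The value of Cyp2j6 rests on its brighter probe set, while a dimmer one changed by -0.10 against control siRNA. No difference was detectable between Cyp2c50 and Cyp2c29 (-0.17, adjusted p = 0.250 by the exact test) or between Cyp2d10 and Cyp2d9 (0.04, adjusted p = 0.391). The windows upstream of these 2 genes had 82.3% of columns identical. Since the 12 pairs share the smallest p, the adjusted value depends on the number of pairs and arrays. No pair passed without any 1 of the control arrays, without Rab5 array 2 or 3, or with the dim genes added (0 in each case). The same test with same-numbered arrays as pairs, added after seeing the data, cannot give a p below 0.125 over 4 pairs of arrays, so no pair of genes could pass it, and 13 of 20 reached that smallest value.

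Control siRNA was then set against PBS, which asks what the siRNA particles did without Rab5 silencing. Of the 34 members limma called 0 (0.00% of all genes lower and 0.00% higher). At an unadjusted threshold of 0.05 limma called 2 members, Cyp2b10 and Cyp1b1, where 4.31% of all genes were called. The groups did not overlap for 6 members, where 13.0% of all genes did so in either direction with 4 against 2 arrays. Of the members 5 were lower and 1 higher, and of all 12855 genes 825 were lower and 845 higher. With so few members these counts are not read as a result about them. Cyp2c37 (-0.46), Cyp2c54 (-0.46), Cyp2d13 (-0.36) and Cyp2c50 (-0.22) were among the 5, with adjusted p of 0.999 each. The member above was Cyp1b1 (0.27).

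Cyp2b10, the typical CAR target and the only member of subfamily 2b above the floor, was the fifth. It measured 7.41 and 7.5 after PBS, 6.40, 5.71, 5.12 and 6.51 with control siRNA and 5.81, 6.53, 5.02 and 5.51 with Rab5 siRNA. Both siRNA groups lay wholly below the PBS arrays and overlapped each other. The difference was -1.52 (SE 0.387, adjusted p = 0.602) for control siRNA against PBS and -0.22 (95% interval -0.90 to 0.47, adjusted p = 0.670) for Rab5 against control siRNA. The other probe sets differed by -1.15 and -0.68 for control siRNA against PBS, in the same direction. The probe set used carries the _s_at suffix, given by Affymetrix to probe sets whose probes match more than 1 transcript. PBS had 2 arrays, which limits the precision of these values.

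**Figure D4:**
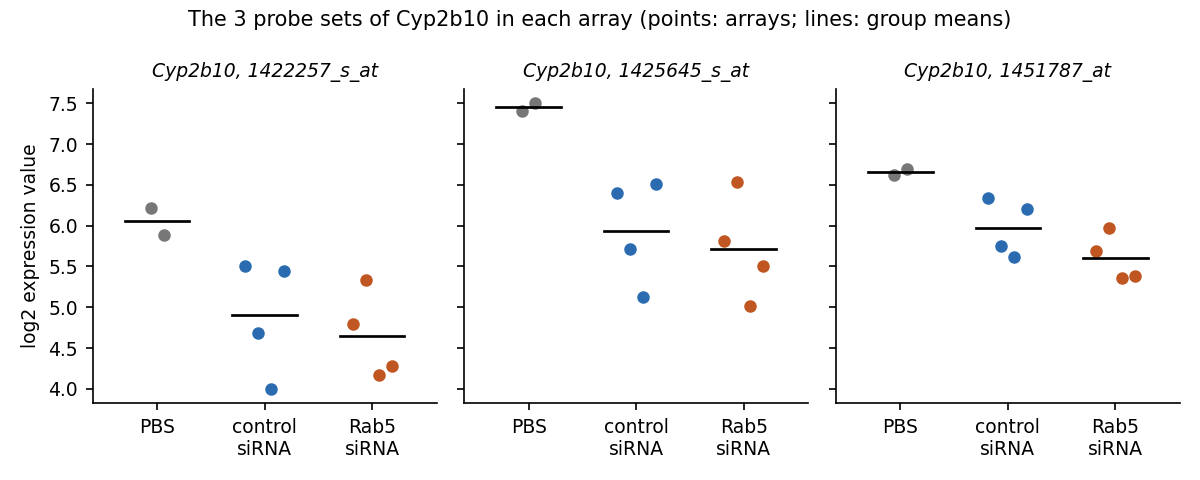
Log2 expression of the 3 probe sets of Cyp2b10 in each array (points) with group means as lines, for PBS (2 arrays), control siRNA (4) and Rab5 siRNA (4). In each probe set both siRNA groups lie below the PBS arrays and overlap each other.

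Rab5 siRNA against PBS, which shares the Rab5 arrays with the first comparison and the PBS arrays with the second, called 12 members lower and 1 higher, where 7.59% of all genes were lower and 9.53% higher. The median change was -0.28 against 0.01 over all genes. Cyp2c37 differed by -2.62 (SE 0.236, adjusted p = 8.48e-06), Cyp2c54 by -2.43, Cyp2d13 by -2.23 and Cyp2c50 by -1.47. Cyp2c55 rose by 1.06 (SE 0.195, adjusted p = 0.00198). Cyp3a11 differed by 0.11 (95% interval -0.18 to 0.39). Cyp2b10 was lower by 1.74 on the log2 scale (-1.74, SE 0.387, adjusted p = 0.00717), a call lost without PBS array 1 (-1.78, adjusted p = 0.0586) or PBS array 2 (-1.69, 0.0657). Cyp1a2 (-0.64, adjusted p = 0.0397) lost its call without PBS array 1 (-0.45, 0.343) or 2 (-0.82, 0.0610), without Rab5 array 3 (-0.61, 0.0831) or 4 (-0.47, 0.0526) and with the replicate number as a block (-0.50, 0.0995). Cyp3a13 (-0.39, adjusted p = 0.247) passed with that block (-0.50, 0.0485). Cyp2j5 (-0.87) lost its call without PBS array 1 (-0.70, 0.0532), and Cyp2e1 (-1.0) without the arrays numbered 2 (-1.05, 0.0557). The count of rises was 2 without Rab5 array 1 or 3. The plot against PBS sets both siRNA groups side by side.

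**Figure D5:**
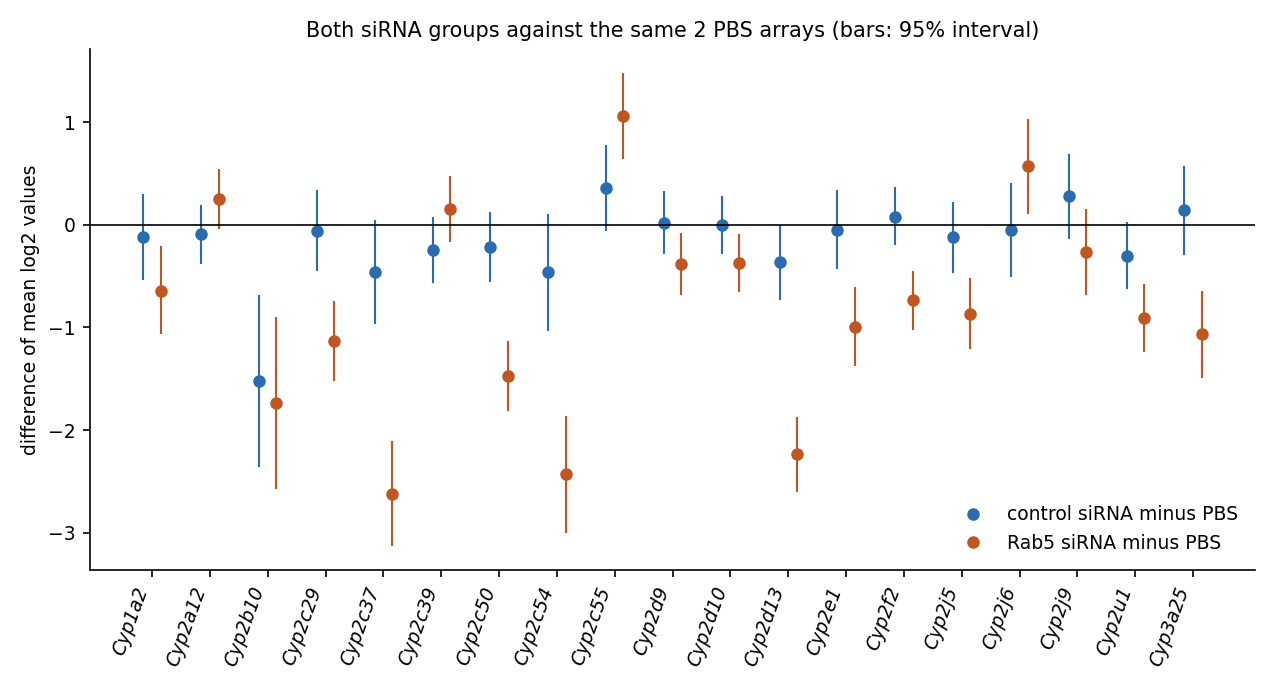
Difference of mean log2 values from the 2 PBS arrays for control siRNA (blue, 4 arrays) and Rab5 siRNA (orange, 4 arrays), for the members called in any comparison; bars are 95% intervals of the limma fit. Cyp2b10 is low in both (-1.52 and -1.74), while Cyp2c37 is at -0.46 and -2.62.

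The rest of the P450 system was read from lists, where 13.8% of all genes tested were called higher and 9.51% lower. Lists of 5 genes or fewer are too short to be set against these shares. Of the electron transfer partners, 1 of 5 measured fell and 0 rose (median -0.24). It was Cyb5b, an outer mitochondrial cytochrome b5 (-0.70, adjusted p = 0.000243; -0.17 and not called as the mean of its probe sets). Cyb5a, the cytochrome b5 of the endoplasmic reticulum, differed by -0.13 (adjusted p = 0.330). In haem synthesis and breakdown 1 of 11 rose and 0 fell (median 0.05), and 11 genes are too few to set these counts apart from the shares of all genes. Alas1, the first enzyme of haem synthesis, differed by -0.03 (adjusted p = 0.947).

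Of 11 nuclear and xenobiotic receptors and linked factors measured, 4 fell and 1 rose (median -0.03). The list holds Arnt, Cebpa and Tiparp, which are not receptors themselves, and Cebpa is 1 of the 4 falls. Ppara, the fatty acid receptor, fell by 0.98 on the log2 scale (adjusted p = 0.000299) and Cebpa, a hepatocyte transcription factor, fell by 0.88 (adjusted p = 0.00101). Ahr rose by 0.69 (adjusted p = 0.00396), while its target Cyp1a2 was lower, as given above. The receptors Nr1i2 (PXR, 0.10, adjusted p = 0.714) and Nr1i3 (CAR, 0.06, adjusted p = 0.774) did not pass. Of 12 measured CAR and PXR targets outside the P450s, 2 rose and 1 fell (median 0.17): Abcb1a (1.00) and Gstm1 (0.66) rose, and the carboxylesterase Ces2a (-1.74) fell. Both counts were close to the shares of all genes. Of 3 AhR targets outside the P450s, 1 rose, the quinone reductase Nqo1 (1.65, adjusted p = 2.41e-05). Tiparp is counted in this list as well, and Alas1 in both the haem list and that of CAR and PXR targets.

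The P450 genes outside families 1 to 3 had 12 of 21 measured genes lower and 3 higher (median -0.64). Cyp26a1, which breaks down retinoic acid (-1.48), Cyp7b1, an oxysterol hydroxylase (-1.44), and Cyp4a12a, a male-predominant fatty acid hydroxylase (-1.41), fell. Genes of both lobular zones fell as well. Of 10 pericentral genes 5 fell and 0 rose (median -0.52), with Oat at -3.04, and of 8 periportal genes 5 fell and 2 rose (median -0.63), with Hal at -1.89. The latter list holds Cyp2f2. Of 9 male-biased genes 7 fell and 0 rose (median -1.44), with Elovl3 at -2.49, and of 4 female-biased genes 1 rose and 1 fell (median -0.03). The male-biased falls include Cyp7b1, and the female-biased fall is Cyp17a1. Both are also counted among the P450 genes outside families 1 to 3. These lists describe which genes moved beside the members, and their relation to the members was not tested.

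Markers of other cell types were counted in the same way, where 13.8% of all genes were called higher and 9.51% lower. Lists of 2 or 3 markers are too short to be set against these shares. Of 8 stellate cell and fibroblast markers 3 rose and 0 fell, and of 6 endothelial markers 3 fell and 0 rose. Of 3 cholangiocyte markers 1 rose, of 3 lymphocyte markers 1 fell (Ighm, -1.38) and of 3 neutrophil and monocyte markers 1 rose. The only marker of kidney or lung above the floor was Sftpc, at 4.48 after PBS, 4.15 with control siRNA and 4.02 with Rab5 siRNA. Of 2 measured markers of intestine and pancreas 1 fell and 0 rose. The summed endothelial level was 10.70 to 10.76 (log2) in control arrays and 10.30 to 10.57 in Rab5 arrays. The part of these cells in the P450 changes was not tested.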

How the data were processed

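The deposited table holds log2 expression values of the authors for 45101 probe sets on 10 arrays. Per the submitters' processing notes, Affymetrix Expression Console, RMA and Partek 6.6 were used, in no stated order. RMA equalises the arrays, so a shift shared by all genes would not be seen. No detection calls were used, and precision is limited by how few arrays there are. Names came from the platform annotation: 34945 probe sets had 1 symbol, 932 had several, 9160 were unnamed here and 64 were controls.

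Probe sets above 4.33, the median of the table, in at least 2 arrays were kept (21068, 41 of them of members). Each gene was read from its brightest kept probe set by mean, and 12855 genes were fitted with limma 3.58.1 (lmFit, eBayes) in R 4.3.3 as group means over all 10 arrays. Calls needed a Benjamini-Hochberg adjusted p under 0.05, and adjusted p-values of single genes are those of limma unless an exact test is named. Upstream windows were aligned with Biopython 1.88. The fit was tested on simulated data. The members and lists were chosen with earlier results of these data known. Named genes were all members, up to 3 called genes of each list with the largest change, the Rab5 genes and Alb, and the text gives a part of them; Cyb5a, Nr1i2, Nr1i3 and Alas1 were named after their values were seen. Alternatives were other filters, probe set choices, scalings and models, and leaving out arrays.

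The titles number the livers of each group. Arrays of the same number deviated together from their group means (r = 0.39, 0.15, 0.19 and 0.31 for numbers 1 to 4, across genes), so the number was also fitted as a block. For number 2 another number gave a higher correlation (0.18).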

Additional observations from a re-analysis of the deposited data

Results flagged for a closer look

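In 68 groups of 4 arrays (34 members in both siRNA groups) 5 values stood far from the other 3 by Dixon's test, which chance gives for about 1 in 20 groups. In the Rab5 group, array 4 was low for Cyp2d9 (12.10, others 12.52 to 12.59) and Cyp2d22 (8.77, others 9.40 to 9.48), and array 2 was high for Cyp3a25 (10.89, others 10.19 to 10.30). In the control group, array 3 was high for Cyp2f2 (12.90, others 12.77 to 12.78) and array 4 was low for Cyp2d12 (5.02, others 5.20 to 5.24).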

How the results depend on the processing

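With the replicate number as a block, limma called 3712 genes for Rab5 against control siRNA (2993 without it), with 14 P450 genes lower and 4 higher as before, 1 gene for control siRNA against PBS, and 2286 for Rab5 siRNA against PBS. Among the members the block ended 1 call, that of Cyp1a2 against PBS, and added 1, that of Cyp3a13 against PBS. For Rab5 against control siRNA, every kept probe set as its own unit gave 4633 calls and leaving out the arrays numbered 2 (chosen after seeing the data) gave 1549. Of the calls 59.2% were rises, 51.6% after quantile normalization and 47.9% after median centring, which moved the median of all genes to -0.05. P450 rises numbered 2 after median centring and 2 without the arrays numbered 2. Leaving out 1 array gave 2222 to 3420 calls, 11 to 14 P450 falls and 1 to 3 P450 rises. For control siRNA against PBS, 2 genes were called after quantile normalization, 3 with array weights and 1 with a trended eBayes, and 0 to 18 without 1 array (4 without control array 1 and 18 without control array 4); no P450 gene was called in any setting run. For Rab5 siRNA against PBS, every probe set gave 3340 calls, leaving out the arrays numbered 2 gave 802, and leaving out 1 array 1113 (PBS array 1) to 2629, with 9 to 15 P450 falls and 1 to 2 rises; array weights gave 2 rises. Differing pairs numbered 0 with no filter, 0 with the block, where an exact test on 4 pairs of arrays (chosen after seeing the data) cannot pass, and 0 to 12 without 1 array.

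Signs turned for values that did not pass. Array weights gave 0.18 for Cyp2b10 and 0.04 for Cyp2d12, and leaving out the arrays numbered 2 gave 0.01 for Cyp2c68. Cyp3a11 was -0.00 after quantile normalization, -0.06 after median centring and -0.04 without the arrays numbered 2, and Alb was -0.01 after median centring. Without 1 array, Cyp1b1 ranged from -0.08 to 0.02, Cyp2b10 from -0.49 to 0.01, Cyp2c68 from -0.15 to 0.09, Cyp2d12 from -0.11 to 0.09, Cyp3a11 from -0.08 to 0.05, Cyp3a13 from -0.23 to 0.00 and S100a8 from -0.27 to 0.43. The cause of these shifts was not tested. Values near the floor may be compressed, which would limit Cyp1a1, Cyp1b1, Cyp2c39, Cyp2g1, Cyp2j9, Cyp2s1, Cyp3a44 and Rab5b. A fall was still called there for Cyp2j9 (-0.54).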
